A study of Mus musculus with 4 samples.

Results

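The cholesterol and fatty acid synthesis genes are 32 gene symbols fixed by name and read in pre-B cells, the stage of B cell development in bone marrow at which a heavy chain has been made and a light chain not yet. They comprise 17 enzymes of sterol synthesis, 5 enzymes of fatty acid synthesis and 6 genes of the control of sterol regulatory element-binding proteins (SREBP). The other 4 form a group named for efflux under the liver X receptors (LXR), in which only Abca1 and Abcg1 encode cholesterol exporters. All 32 were found among the 23284 symbols of each library. RNA-seq was carried out on 4 libraries of C57BL/6J mice, 1 per group: wild-type (WT) marrow at steady state, STAP-2 transgenic (Tg) marrow at steady state, wild-type marrow 1 month after transplantation, and marrow labelled STAP-2 knockout 1 month after transplantation. The labels name neither the promoter of the transgene, the number and age of the animals, nor the host of the transplants. STAP-2 is a signal-transducing adaptor. The design asks which pathways STAP-2 controls in pre-B cells. Only WT was read both with and without the stress of transplantation.

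Cells build cholesterol from acetyl-CoA through mevalonate, squalene and lanosterol, and fatty acids from the same acetyl-CoA, which ATP citrate lyase supplies in the cytosol. SREBP-1 and SREBP-2 are made as membrane precursors, escorted to the Golgi by SCAP when sterol is scarce and held in the endoplasmic reticulum by the INSIG proteins when it is plentiful. For cholesterol, LXR act on the opposite side, being switched on by oxysterols and inducing cholesterol exporters. Proliferating lymphocytes are known to need both pathways for new membrane.

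With 1 library per group no difference below has a replicate check and none was tested. Values are FPKM (reads normalised to transcript length and library size), a scale corrected for length on which genes can be compared with each other. Each ratio is given with a 95% interval (exact, by Clopper and Pearson, using estimated reads), which covers counting error only. Depth was estimated at between 7260000 and 8680000 reads per library, and the 32 genes rested on 31 to 4405 reads each. Stap2, the targeted gene, stood at 0.212 FPKM in steady-state WT and 0.536 in the Tg library. Transplanted WT had no read for it (3 reads would give 0.298 FPKM), and the knockout-labelled library had 0.179. At 5 reads or fewer in every library it checks neither label.

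The pre-B identity of the libraries was checked on defining markers, of which Cd79a, a signalling chain of the B cell receptor, was at 1624 to 1952 FPKM. Of 13 pre-B markers only Vpreb2 was at 0 in a library, steady-state WT. The list was not even: Vpreb1, Vpreb2 and Igll1, the surrogate light chain genes, were lowest in that library. In the order WT and Tg at steady state, then WT and the knockout-labelled library after transplantation, Vpreb1 was at 7.31, 34.4, 30.2 and 38.6 FPKM. Igll1 was at 14.6, 39.9, 36.4 and 49.7 and Vpreb2 at 0, 3.74, 7.59 and 8.86, with reads that the similar Vpreb1 and Vpreb2 may share. Steady-state WT thus stood apart, and the part of this in the comparisons with it was not tested. Markers of other cells differed between the libraries. The summed level of 12 neutrophil markers was 771 FPKM in WT and 1845 in the Tg library at steady state, then 1697 in WT and 655 in the knockout-labelled library after transplantation. None of these 12 was at 0 in any library. Of 8 erythroid markers 1 had a mean of 1 FPKM or more, the hemoglobin gene Hba-a1, at 32.6, 3.89, 4.38 and 8.17 FPKM in the same order, highest in steady-state WT. Of 11 macrophage and monocyte markers, whose sums were 42.4, 71.8, 115 and 44.1 FPKM in the same order, only Cd14 was at 0 in a library. Lyz2 alone gave 30.7 FPKM of the sum in WT and 52.0 of that in the Tg library at steady state. The summed level of 14 mitosis genes was 659 and 859 FPKM at steady state and 529 and 1046 after transplantation, highest in the knockout-labelled library for all 14. In such bulk samples fewer cells of a type and less RNA per cell cannot be told apart.

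All 32 genes were expressed in every library, and the sterol enzymes were the lowest of the 4 groups. Their mean over the libraries ran from 2.29 to 18.5 FPKM, with a median of 6.63, against 16.6 for the 10621 genes with a mean of 1 FPKM or more. The scarcest were Lss (lanosterol synthase) at a mean of 2.29 FPKM and Sqle (squalene epoxidase, which commits squalene to sterols) at 2.74. Ebp, a sterol isomerase, was the most abundant of the 17 at 18.5 FPKM. Fatty acid enzymes split into a low and a high set. Acaca (acetyl-CoA carboxylase) and Fasn (fatty acid synthase) had means of 4.87 and 10.7 FPKM, whereas Acly (ATP citrate lyase) reached 81.2 and the stearoyl-CoA desaturases Scd1 and Scd2 reached 102 and 56.2. Among the control genes the level of Scap (mean 44.6 FPKM) and Srebf2, the gene of SREBP-2 (35.8), lay above that of Srebf1, the gene of SREBP-1 (21.6). Insig2 (14.01), Insig1 (12.2) and Stard4, which encodes a sterol transfer protein (5.37), were lower. In the efflux group Mylip, which encodes the ubiquitin ligase IDOL that removes lipoprotein receptors, had a mean of 121 FPKM and Nr1h2, the gene of LXR beta, one of 75.2. The exporter genes Abca1 and Abcg1 stood at 17.3 and 16.6.

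**Figure D1:**
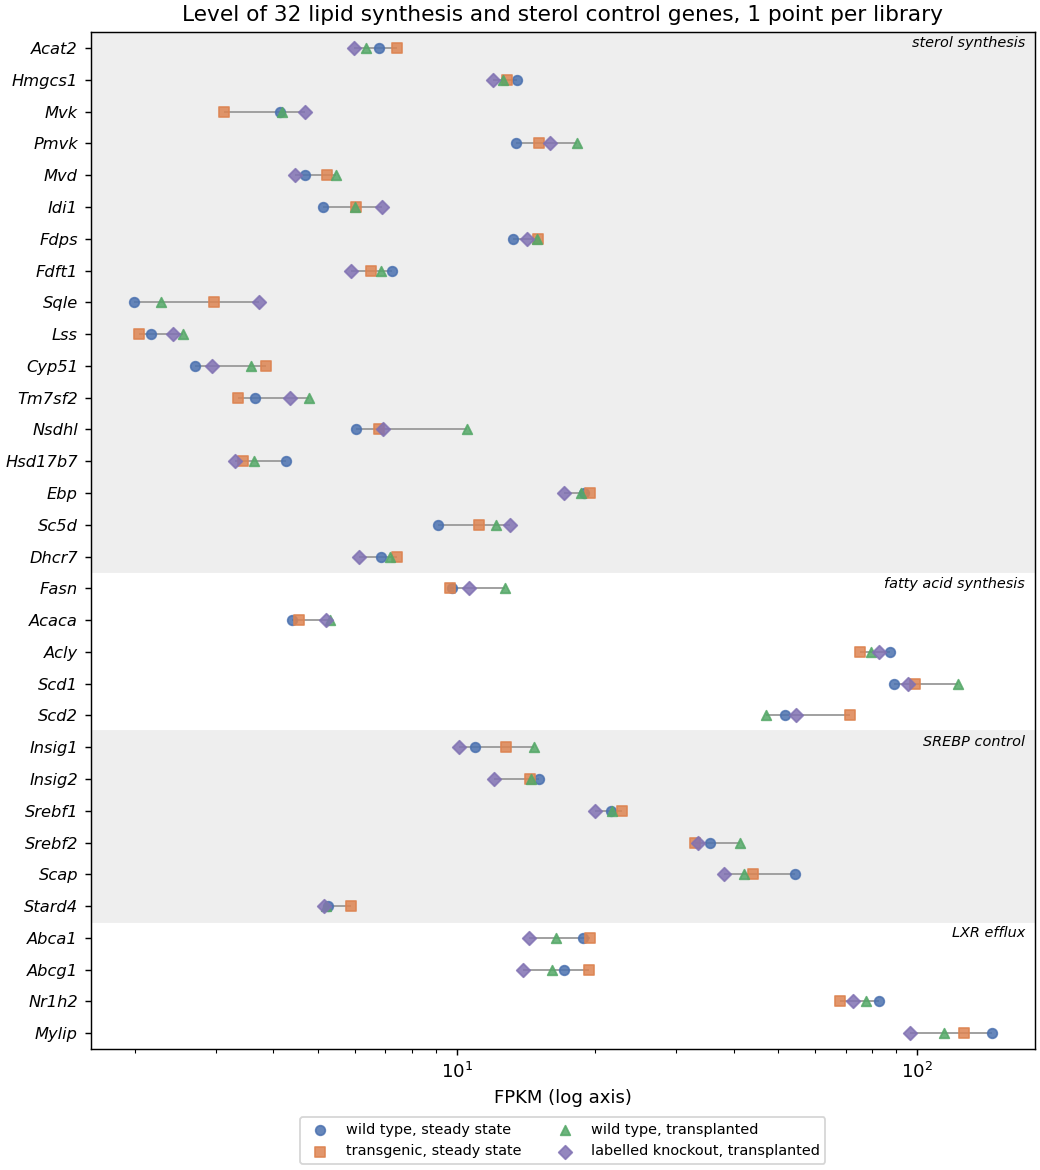
FPKM (log axis) of the 32 genes in each of the 4 libraries, 1 point per library, with a grey line from the lowest to the highest; shading separates the 4 groups of genes. Points of a gene lie close together, the highest library being 1.13 to 1.87 times the lowest, while genes differ from each other over a far wider range.

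Across the 4 libraries the 32 genes varied about as much as expressed genes in general. The highest library exceeded the lowest by a median of 1.30-fold over the 32 genes and by a median of 1.26-fold over the 10621 expressed genes. Hmgcs1 (HMG-CoA synthase), at 13.5 FPKM in WT and 12.9 in the Tg library at steady state and 12.6 in WT and 11.97 in the knockout-labelled library after transplantation, spanned 1.13-fold. Fdps (farnesyl diphosphate synthase) spanned 1.13-fold as well and had, by a small margin, the narrowest span of the 32, Ebp and Srebf1 1.14-fold each. Sqle had the widest span, 1.87-fold, followed by Nsdhl, a sterol C4 dehydrogenase gene, at 1.74-fold. The knockout-labelled library was the lowest of the 4 for 15 of the 32 genes. Among these were 5 of 6 control genes and 3 of 4 efflux genes. It was the highest for 4, all of them sterol enzymes: Mvk, Idi1, Sqle and Sc5d. The same counts over all expressed genes were not made, so whether these counts are particular to the 32 is not known. Of the expressed genes 55.8% were lower in this library than in transplanted WT, which is a different measure.

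Along the pathway, values below are in the order WT and Tg at steady state, then WT and the knockout-labelled library after transplantation. In the mevalonate arm Mvk, the mevalonate kinase gene, was at 4.14, 3.13, 4.18 and 4.68 FPKM, lowest in the Tg library, where it rested on 32 reads. Mvd, the gene of the decarboxylase that yields isopentenyl diphosphate, was at 4.69, 5.22, 5.48 and 4.45. Fdps, whose product farnesyl diphosphate is the branch point to prenylation, dolichol and sterols, was at 13.3, 14.996, 14.9 and 14.2. Fdps was thus above Mvk and Mvd in every library. Fdft1, the squalene synthase gene at the entry to sterols proper, was at 7.24, 6.53, 6.85 and 5.89 FPKM, and Lss, which closes the sterol rings, at 2.17, 2.04, 2.54 and 2.43. Past lanosterol, Tm7sf2 was at 3.65, 3.35, 4.77 and 4.35 FPKM, and Hsd17b7, a 3-keto sterol reductase gene, at 4.25, 3.43, 3.63 and 3.29. Dhcr7, whose product reduces dehydrocholesterol to cholesterol, was at 6.85, 7.44, 7.17 and 6.13. No library was the lowest for all of these genes: the knockout-labelled library was lowest for Mvd, Fdft1, Hsd17b7 and Dhcr7, the Tg library for Mvk, Lss and Tm7sf2, and WT at steady state for Fdps.

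Several values are uncertain because reads can be shared. Acat2, which makes the acetoacetyl-CoA that opens the pathway, has a near-identical neighbour, Acat3, listed at 13.5 to 16.8 FPKM beside 5.98 to 7.44 for Acat2. Scd1 and Scd2 are close paralogs on chromosome 19. Exons of Fdft1 (squalene synthase) overlap those of Ctsb on the other strand and exons of Cyp51 (lanosterol demethylase) those of Akap9, and it is not stated whether counting used strand. Tm7sf2, a sterol C14 reductase gene, shares exon bases with Vps51 on its own strand.

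What these genes share beyond function was examined in the DNA before their start sites, where SREBP is known to act together with the factor NF-Y. RefSeq start site sequences (GRCm38.p6) matched 25 of the 32 symbols; Fdps, Fdft1, Sqle, Scd1, Scd2, Stard4 and Abcg1 had none. The 250 bases upstream of each start were searched on both strands for the core of the sterol regulatory element (TCACNCCAC), the NF-Y box (CCAAT) and the E-box (CACGTG), motifs that did not overlap each other in the windows shown. At least 1 NF-Y box was present for 13 of 14 sterol enzymes with a sequence, all but Acat2, and for 4 of 5 control genes, against 37.5% of 27025 genes with such a window. It was present for 1 of 3 fatty acid enzymes, Fasn, and 1 of 3 efflux genes, Mylip. The E-box was found for 6 of 25 genes (Hsd17b7, Sc5d, Dhcr7, Insig1, Scap and Abca1), against 6.86% of all genes. The strict sterol element core was found for Hmgcs1 alone, and in 1.22% of all genes. These shares over all genes were not limited to expressed genes, whereas all 32 members were expressed. A match is a stretch of letters and not proof of a site.

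Sequences of 3 genes are shown because they hold the motifs in different combinations and belong to Hmgcs1, the most even of the 25 genes with a sequence, and to Insig1 and Nsdhl, which varied more. Distances are counted from the RefSeq starts, 119690351 for Hmgcs1, 28071412 for Insig1 and 72918521 for Nsdhl, which differ from the GENCODE gene starts given with each gene. Hmgcs1 (gene on chromosome 13, 119690379 to 119708260, plus strand) has NF-Y boxes beginning 237, 176 and 45 bases before the start and the sterol element core 137 bases before it. Insig1 (chromosome 5, 28071363 to 28078662, plus strand) has an NF-Y box at 216 and an E-box at 101 bases before its RefSeq start, and Nsdhl (chromosome X, 72918557 to 72958514, plus strand) has NF-Y boxes at 109 and 20. Capitals mark these motifs, and every NF-Y box here reads ATTGG, that is CCAAT on the opposite strand. For Insig1 the first 200 of the 250 bases are shown, up to the GENCODE gene start. The stretches are Hmgcs1 at chr13:119690101-119690350, Insig1 at chr5:28071162-28071361 and Nsdhl at chrX:72918271-72918520, all on the plus strand of GRCm38.p6 and read 5′ to 3′.
Hmgcs1: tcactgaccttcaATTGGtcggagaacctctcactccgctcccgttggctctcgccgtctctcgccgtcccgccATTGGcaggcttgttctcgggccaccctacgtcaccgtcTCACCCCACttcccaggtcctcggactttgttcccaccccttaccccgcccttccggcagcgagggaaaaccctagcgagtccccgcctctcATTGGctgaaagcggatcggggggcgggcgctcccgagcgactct
Insig1: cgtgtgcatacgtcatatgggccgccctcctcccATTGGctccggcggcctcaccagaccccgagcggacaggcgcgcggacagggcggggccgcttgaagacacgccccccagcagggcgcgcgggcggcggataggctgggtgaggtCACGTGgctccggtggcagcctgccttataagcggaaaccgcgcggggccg
Nsdhl: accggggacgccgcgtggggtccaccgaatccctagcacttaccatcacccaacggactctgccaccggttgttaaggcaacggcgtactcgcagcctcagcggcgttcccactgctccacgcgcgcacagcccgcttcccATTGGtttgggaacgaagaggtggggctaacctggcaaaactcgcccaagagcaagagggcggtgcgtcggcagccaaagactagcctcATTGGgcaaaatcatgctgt

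**Figure D2:**
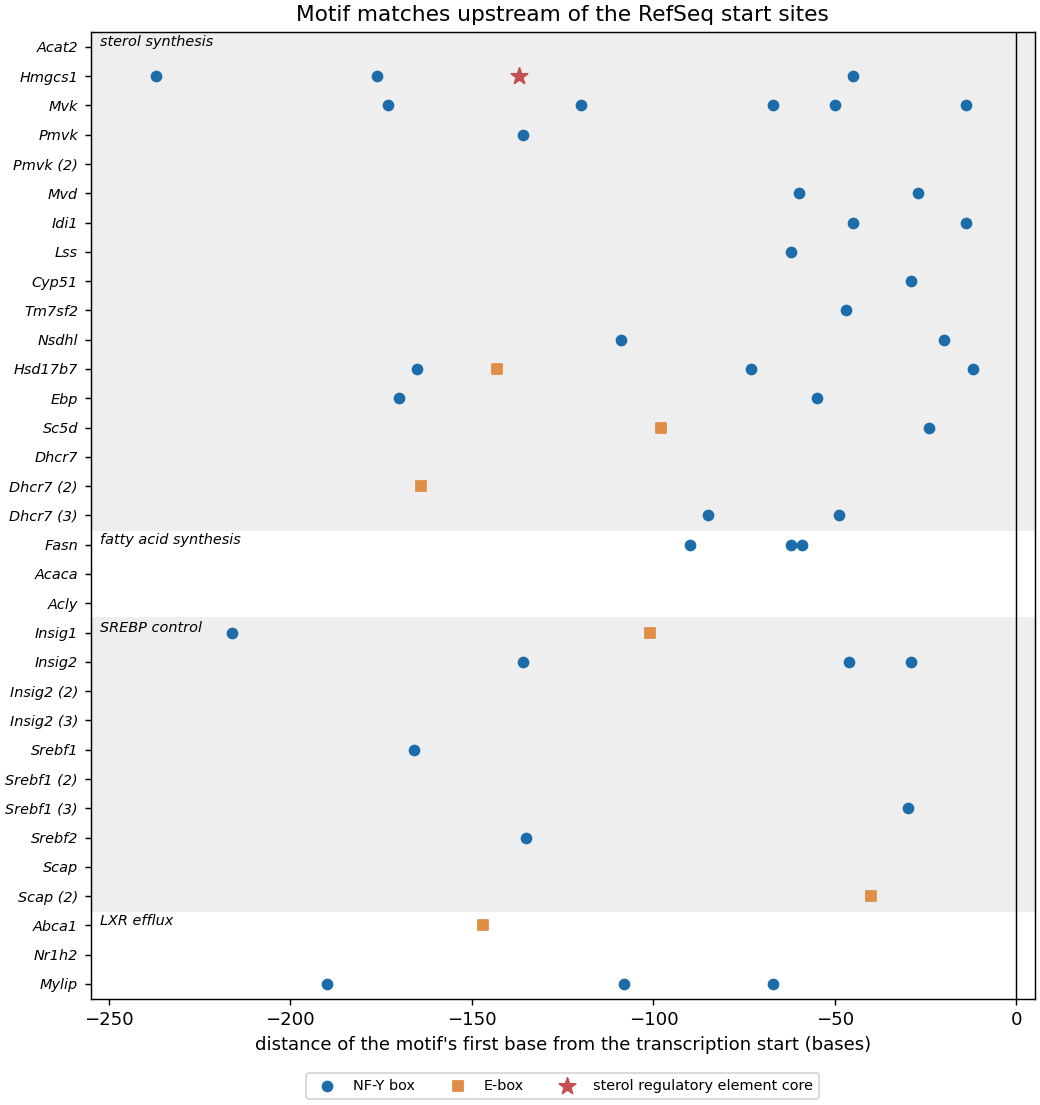
Positions of motif matches in the 250 bases before each RefSeq start site of the 25 matched genes, 1 line per start site (numbers in brackets mark further start sites of a gene); the x axis gives the distance of the motif's first base from the start in bases. Blue circles (NF-Y boxes) appear on the lines of 13 of 14 sterol enzymes, and the single red star is the sterol regulatory element core of Hmgcs1.

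The Tg and wild-type libraries of unperturbed marrow were compared for the effect of added STAP-2. No member of the 32 differed by 1.5-fold or more on the log2(FPKM + 1) scale, a scale that understates the change of low genes. Over the 10621 expressed genes 3.36% were higher by that much and 2.01% lower. Of the 32, 19 were higher and 13 lower in the Tg library, against 46.4% and 53.5% of all genes. The median difference was 0.11 for the sterol enzymes (11 of 17 higher), 0.04 for the fatty acid enzymes (3 of 5 higher), 0.01 for the control genes (3 of 6 higher) and -0.07 for the efflux genes (2 of 4 higher), beside -0.02 for all genes. Scaling each library to the same sum moved the median of all genes to -0.13. The 32 then split into 14 higher and 18 lower, so their split rests on the scaling. For single comparisons the shares of all genes higher or lower on that scale were not counted, here or below. The median of the 32 was 0.06 as deposited, beside -0.02 for all genes, and -0.05 beside -0.13 on that scale.

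The counting interval of the ratio lay above 1 for 5 of the 32 genes and below 1 for 4, against 14.4% and 18.2% of the expressed genes with a known length. Of the sterol enzymes it lay above 1 for Cyp51, at 2.70 FPKM in WT and 3.85 in the Tg library (ratio 1.43, 1.05 to 1.97), and for Sc5d, a sterol C5 desaturase gene, at 9.09 and 11.2 FPKM (ratio 1.23, 1.05 to 1.44). Sqle was at 1.99 and 2.98 FPKM with an interval that reached below 1 (ratio 1.499, 0.97 to 2.34), resting on 37 and 55 reads. On the log2(FPKM + 1) scale the largest difference of the 32 was that of Scd2, though the plain ratios of Sqle and Cyp51 were larger. Scd2 encodes a desaturase that places the double bond of monounsaturated fatty acids. It stood at 51.6 FPKM in WT and 71.4 in the Tg library (ratio 1.38, 1.31 to 1.47), the highest of the 4 libraries. Scd1 was at 89.1 and 99.02 FPKM (ratio 1.11, 1.06 to 1.17), while Acly was lower, at 87.6 and 75.0 FPKM (1.17-fold lower, 1.10 to 1.23). Thus the desaturases and the citrate lyase lay on opposite sides, and Fasn (9.78 and 9.65 FPKM, ratio 0.987) and Acaca (4.39 and 4.55, ratio 1.04) between them.

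Among the control and efflux genes the Tg library was lower for Scap, at 54.3 FPKM in WT and 44.0 in the Tg library (1.24-fold lower, 1.15 to 1.33). It was lower as well for Nr1h2, at 82.9 and 68.2 FPKM (1.22-fold lower, 1.11 to 1.33), and for Mylip, at 145 and 127 FPKM (1.15-fold lower, 1.09 to 1.21). Abcg1, which exports cholesterol to high-density lipoprotein, was higher, at 17.1 and 19.3 FPKM (ratio 1.13, 1.02 to 1.26). The LXR efflux genes thus did not share a direction. All 12 neutrophil markers were higher in this library, at a median difference of 1.16, as were 6 of 8 expressed macrophage and monocyte markers, at 0.68, and all 14 mitosis genes, at 0.35. The macrophage and monocyte list was not even. Emr1 and Cd68 were lower, and below the filter Ccr2 and Mrc1 were lower and Cd14 higher. The part of these lists in the differences above was not tested.

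**Figure D3:**
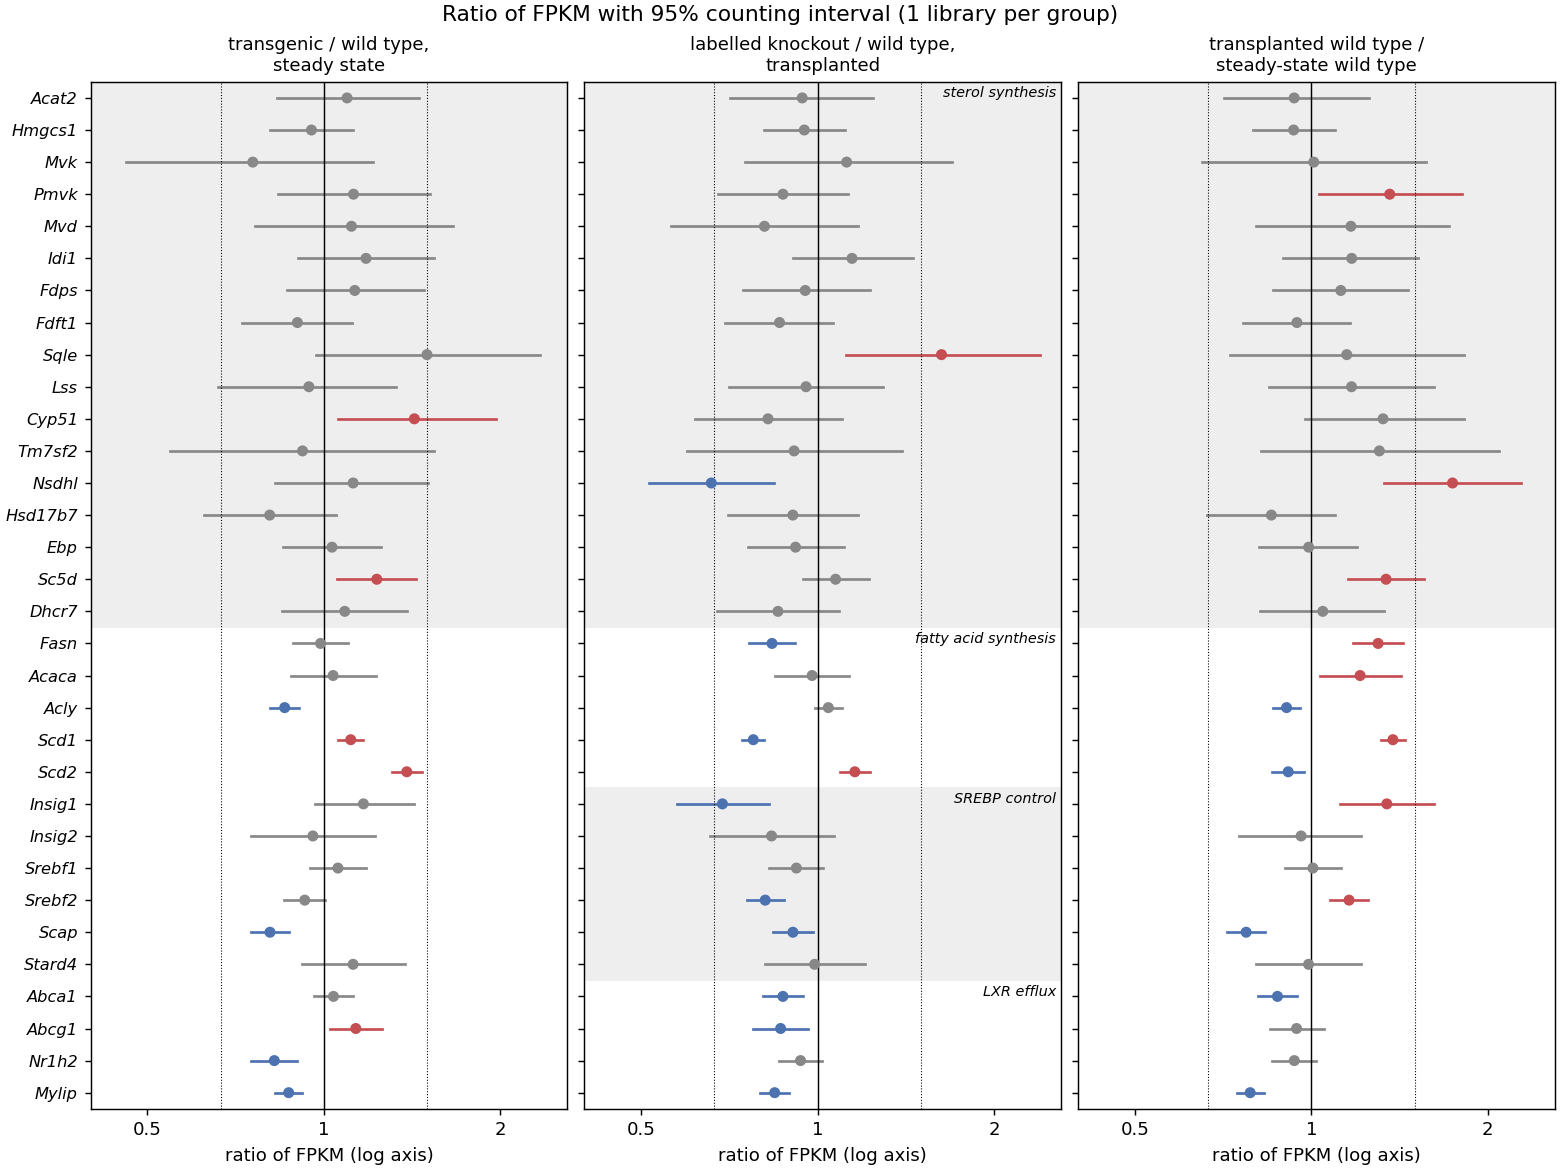
Ratio of FPKM (log axis) for each of the 32 genes in 3 comparisons, 1 library per group; horizontal lines are 95% counting intervals, red where the interval lies above 1, blue below 1 and grey where it holds 1, and dotted lines mark plain ratios of 1.5 and its inverse. Most intervals of the sterol enzymes hold 1; of the 32 ratios in the comparison after transplantation, 26 lie below 1.

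The knockout-labelled library was compared with WT, both 1 month after transplantation, to see what loss of STAP-2 does after stress; every direction rests on that label. Here 26 of the 32 genes were lower and 6 higher, against 55.8% and 44.1% of all genes. Again no gene passed 1.5-fold on the log2(FPKM + 1) scale, where 3.58% of all genes were higher by that much and 4.06% lower. The median difference was -0.11 for the sterol enzymes (13 of 17 lower), -0.03 for the fatty acid enzymes (3 of 5 lower), -0.19 for the control genes (6 of 6 lower) and -0.19 for the efflux genes (4 of 4 lower), beside -0.03 for all genes. With libraries scaled to the same sum, the median of all genes moved to 0.06 and the 32 split into 19 lower and 13 higher. Their median was -0.12 as deposited, beside -0.03 for all genes, and -0.03 beside 0.06 with the same sum. On that scale Nr1h2 and Stard4 were no longer lower, at 0.01 and 0.07, and Stard4 was at 0.01 when libraries were scaled by the median of gene ratios.

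The counting interval lay below 1 for 9 of the 32 genes and above 1 for 2, against 22.1% and 15.2% of the expressed genes with a known length. The low library for most control genes was the one labelled knockout. Insig1, whose product retains SCAP and is itself a known SREBP target, was at 11.0 FPKM in WT and 12.8 in the Tg library at steady state, 14.7 in WT after transplantation and 10.1 in the knockout-labelled library, 1.45-fold lower than its WT (1.21 to 1.74). Srebf2, the sterol-directed SREBP gene, was at 41.2 and 33.5 FPKM in WT and the knockout-labelled library (1.23-fold lower, 1.14 to 1.32), and Scap at 42.1 and 38.2 (1.10-fold lower, 1.02 to 1.19). Srebf1 was at 21.8 and 20.0 FPKM (ratio 0.920) and Insig2 at 14.5 and 12.1 (ratio 0.834), each with an interval that held 1. Transplanted WT was the highest of the 4 libraries for both Insig1 and Srebf2.

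The efflux genes were all lower in the knockout-labelled library by 1.07-fold to 1.18-fold. Mylip was at 114 FPKM in transplanted WT and 96.5 in the knockout-labelled library (1.18-fold lower, 1.12 to 1.25), Abcg1 at 16.1 and 13.9 (1.16-fold lower, 1.04 to 1.29) and Abca1 at 16.4 and 14.3 (1.15-fold lower, 1.06 to 1.24). Nr1h2 was at 77.5 and 72.5 FPKM, with an interval that held 1 (ratio 0.935, 0.859 to 1.02). Beside these, 12 of 12 neutrophil markers were lower at a median difference of -1.39 and 8 of 8 expressed macrophage and monocyte markers at -0.93, whereas 14 of 14 mitosis genes were higher at 0.98. Macrophages are known for strong expression of LXR targets, and the part of these cells in the efflux values was not tested.

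Of the sterol enzymes 2 had intervals away from 1, in opposite directions. Nsdhl, whose product removes the C4 methyl groups of sterols, was at 6.04 FPKM in WT and 6.77 in the Tg library at steady state, 10.5 in WT after transplantation and 6.93 in the knockout-labelled library (1.52-fold lower, 1.19 to 1.94). Only transplanted WT stood out, the other 3 libraries lying within 6.04 to 6.93 FPKM. Sqle (chromosome 15, 59315077 to 59331192, plus strand) had 2.28 FPKM in transplanted WT and 3.71 in the knockout-labelled library (ratio 1.63, 1.12 to 2.40), its highest value, resting on 45 and 82 reads. On the log2(FPKM + 1) scale these differences were -0.54 and 0.52, under the 1.5-fold mark that both plain ratios pass. The remaining 15 enzymes had ratios from 0.812 (Mvd, diphosphomevalonate decarboxylase) to 1.14 (Idi1, isopentenyl diphosphate isomerase).

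Of the fatty acid enzymes, the paralogous desaturases lay on opposite sides. Scd1 (chromosome 19, 44394455 to 44407879, minus strand) had 123 FPKM in transplanted WT and 95.4 in the knockout-labelled library (1.29-fold lower, 1.23 to 1.35). Scd2 (chromosome 19, 44293674 to 44306864, plus strand) had 47.1 and 54.5 FPKM (ratio 1.16, 1.09 to 1.23). Transplanted WT was the library highest in Scd1 and lowest in Scd2. Fasn was at 12.7 and 10.6 FPKM (1.20-fold lower, 1.09 to 1.31), whereas Acaca (5.32 and 5.20, ratio 0.979) and Acly (79.4 and 82.8, ratio 1.04) had intervals that held 1.

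Transplanted and steady-state WT differ in the code of their titles as well as in the transplantation, so the condition and whatever that code stands for cannot be told apart. This comparison shares a library with each of the others. Nsdhl was the 1 gene of the 32 past 1.5-fold, higher after transplantation at 10.5 against 6.04 FPKM (ratio 1.74, 1.33 to 2.28), where 4.79% of all genes were higher by that much and 2.01% lower. At 2-fold no gene of the 32 was counted in any comparison, where between 0.565% and 1.56% of all genes were in each direction (1.08% higher and 0.612% lower in the Tg library, the same shares exchanged in the knockout-labelled library). Of the 32 genes 18 were higher and 14 lower, against 45.6% and 54.3% of all genes, or 15 and 17 with libraries scaled to the same sum. The median of the 32 was 0.03 as deposited, beside -0.02 for all genes, and -0.05 beside -0.12 with the same sum. The median difference was 0.16 for the sterol enzymes (12 of 17 higher), 0.23 for the fatty acid enzymes (3 of 5 higher), 0.00 for the control genes and -0.14 for the efflux genes (4 of 4 lower), beside -0.02 for all genes.

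The interval lay above 1 for 8 of the 32 genes and below 1 for 5, against 15.9% and 18.9% of the expressed genes with a known length. Higher with Nsdhl were Pmvk, the phosphomevalonate kinase gene, at 18.3 against 13.4 FPKM (ratio 1.36, 1.03 to 1.81), and Sc5d at 12.2 against 9.09 (ratio 1.34, 1.15 to 1.56). Scd1 (ratio 1.38, 1.32 to 1.44), Fasn (1.30, 1.18 to 1.43), Acaca (1.21, 1.04 to 1.42), Insig1 (1.35, 1.12 to 1.62) and Srebf2 (1.16, 1.08 to 1.25) were the others above 1. Genes of mevalonate, sterol and fatty acid synthesis and of SREBP control were thus among those higher after transplantation. Scap was 1.29-fold lower (1.20 to 1.39), Mylip 1.27-fold (1.21 to 1.34), Abca1 1.14-fold (1.06 to 1.23), Acly 1.10-fold (1.04 to 1.16) and Scd2 1.10-fold lower (1.03 to 1.17). Neutrophil markers (12 of 12 higher, median 1.13) and macrophage and monocyte markers (8 of 8 higher, median 1.25) were higher in the same library and mitosis genes lower (14 of 14, median -0.29), and their part was not tested.

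Both genotype comparisons, which share no library, were set side by side. The Tg comparison is at steady state and the knockout-labelled one after transplantation, with another title code. Genotype and condition therefore cannot be told apart between them. Of the 32 genes 15 were higher in the Tg library and lower in the knockout-labelled library, each against its own WT. That is 46.9%, where 22.6% of all expressed genes had this pair of directions. With libraries scaled to the same sum the count fell to 7 (Pmvk, Mvd, Cyp51, Nsdhl, Scd1, Insig1 and Abcg1), 21.9% against 9.88% of all genes. The pair is also that of the 12 neutrophil markers, all of which were higher in the first comparison and lower in the second. Another 11 genes were lower in both (34.4%, against 33.2% of all genes), including Hmgcs1, Fdft1, Lss, Fasn, Srebf2, Scap, Nr1h2 and Mylip. Only Idi1, Sqle, Sc5d and Scd2 were higher in both (12.5%, against 23.8%), and Mvk, the mevalonate kinase gene, and Acly were lower in the first and higher in the second. Idi1 was at 5.13 FPKM in WT and 6.05 in the Tg library at steady state, and at 6.01 and 6.88 after transplantation, with intervals that held 1. The mitosis list had the same pair of directions as these 4 genes, 14 of 14 higher in each comparison, and its part was not tested. With libraries scaled to the same sum, 5 of the 32 genes (Ebp, Dhcr7, Acaca, Srebf1 and Abca1) changed sign in the first comparison and 7 (Acat2, Hmgcs1, Fdps, Lss, Acaca, Stard4 and Nr1h2) in the second. That scaling moved the median of all genes to -0.13 in the first and to 0.06 in the second.

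**Figure D4:**
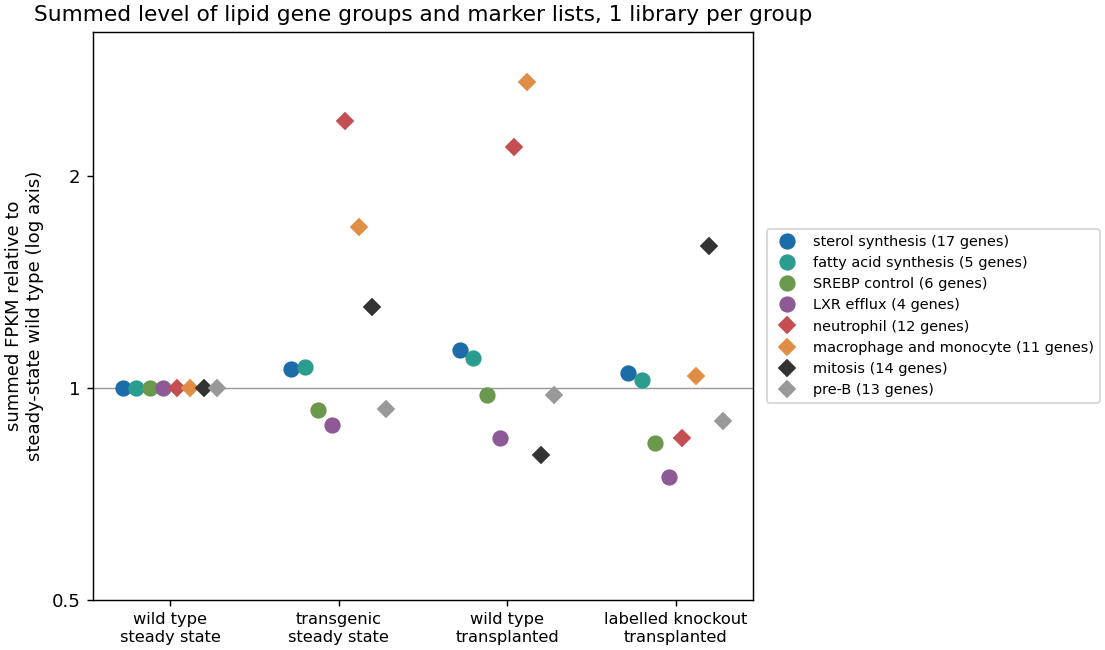
Summed FPKM of the 4 groups of lipid genes (circles) and of 4 marker lists (diamonds) in each library, divided by the sum in steady-state wild type (log axis; points are spread sideways for legibility, 1 library per group). In the Tg library and in transplanted wild type the circles lie much nearer to 1 than the diamonds of neutrophil and of macrophage and monocyte markers, and the lowest circle is that of the efflux genes in the knockout-labelled library.

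As sums, the sterol enzymes stood at 124 and 132 FPKM in WT and the Tg library at steady state and at 140 and 130 in WT and the knockout-labelled library after transplantation. The fatty acid enzymes stood at 242, 260, 267 and 249 FPKM in the same order, and the control genes at 143, 133, 139 and 119. The efflux genes were at 264, 234, 224 and 197 FPKM, lowest in the knockout-labelled library, and of these sums Mylip made up the largest part. At steady state the exporter genes did not go with the lower sum of the Tg library. Abca1 was at 18.8 FPKM in WT and 19.5 in the Tg library, with an interval that held 1, and Abcg1 at 17.1 and 19.3.

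A list of 32 further genes of lipid synthesis, uptake and transport matched in full, and 25 had a mean of 1 FPKM or more. Of these 25, 14 were higher and 11 lower in the Tg library, none past 1.5-fold, and 11 were higher and 14 lower in the knockout-labelled library, 1 past 1.5-fold in each direction. Elovl6, which lengthens palmitate to stearate ahead of the desaturases, was at 7.34 FPKM in WT and 10.8 in the Tg library at steady state (ratio 1.47, 1.27 to 1.70). After transplantation it was at 7.32 in WT and 11.9 in the knockout-labelled library (ratio 1.63, 1.42 to 1.87). Its level was thus nearly the same in both WT libraries and higher in both of the other libraries, the directions that the 14 mitosis genes also had, whose part was not tested. Fads1, a desaturase gene of polyunsaturated fatty acids chosen after its values were seen, was at 4.20 and 5.84 FPKM at steady state (ratio 1.39, 1.07 to 1.82) and 4.48 and 6.05 after transplantation (ratio 1.35, 1.06 to 1.73). Fads2, of the same list, did not share this. It was at 5.25 and 5.40 FPKM at steady state (ratio 1.03, 0.785 to 1.34) and 3.77 and 3.45 after transplantation (ratio 0.916, 0.672 to 1.25).

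Pltp, the gene of phospholipid transfer protein and a known LXR target, was at 2.73 FPKM in WT and 3.79 in the Tg library at steady state. After transplantation it was at 5.24 in WT and 3.02 in the knockout-labelled library, 1.73-fold lower (1.16 to 2.62), and transplanted WT exceeded steady-state WT with a ratio of 1.92 (1.24 to 3.02). Nr1h3, the gene of LXR alpha, was low throughout, at 0.257, 0.173, 1.13 and 0.433 FPKM in the same order, with a ratio of 4.41 (1.23 to 23.9) between the WT libraries. Both were highest in the library with the highest macrophage and monocyte sum, whose part was not tested. The most abundant genes of the list were Gpam, which starts glycerolipid synthesis, Npc2, a lysosomal cholesterol carrier gene, Mbtps1, the site-1 protease that cleaves SREBP, and the elongase gene Elovl5. Gpam was at 105 FPKM in WT and 77.6 in the Tg library (1.35-fold lower, 1.29 to 1.42), and at 74.4 and 88.0 after transplantation (ratio 1.18, 1.12 to 1.24), so that steady-state WT was its high library. Npc2 stayed within 62.9 to 66.1 FPKM, Elovl5 within 33.3 to 36.9, and Mbtps1 was 1.14-fold lower (1.07 to 1.22) in the Tg library and 1.12-fold lower (1.05 to 1.19) in the knockout-labelled library.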

How the data were processed

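The 4 files hold 1 value per gene symbol, deposited by the authors and read as FPKM, because the values are not whole, are never negative and come with Cufflinks in the submitters' processing notes. The headers name no unit. The submitters' processing notes list Cufflinks 2.2.1, TopHat2 2.0.13, SAMtools 0.1.19 and Bowtie2 2.2.3 with build mm10, and per the labels' protocols libraries came from a stranded mRNA kit. Annotation, filters and scaling between libraries: not given in the sources used here.

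Differences were taken on log2(FPKM + 1) among genes with a mean of 1 FPKM or more over the 4 libraries, and counted at 1.5-fold. With 1 library per group there is no p-value. Depth was estimated from low FPKM values, which lie on steps of 1 read: with a length of the transcript minus 210 nt, 63.2% to 64.5% of low values fell within 0.05 of a whole number, where chance gives 10%. Part of that share is built in, because the depth was chosen to raise it. Lengths came from GENCODE M21 (GRCm38), where 20911 symbols matched as written, 1914 by an older name and 459 did not match, and reads of genes with several transcripts are approximate. The scripts were tested on simulated reads with known depths and fold changes (Python 3.11.15, scipy 1.17.1). Members, lists, motifs and thresholds were chosen with earlier results of these data known. All 32 members are named. Of the further list, genes past 1.5-fold with an interval away from 1 and the 4 most abundant others are named. Fads1, chosen after its values were seen, and Fads2 were added outside this rule. Alternatives were another pseudocount, other filters, other scalings and a 2-fold mark. Pre-B markers (13 genes) had median differences of -0.08, 0.13 and -0.03 in the 3 comparisons, with 3 genes past 2-fold higher in the Tg library and in transplanted WT. Plasma cell markers are given in the closing section.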

Additional observations from a re-analysis of the deposited data

How the results depend on the processing

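No replicate could be left out with 1 library per group. No paired analysis was possible because each group has a single library and no result comes from a test. Of 93 alternative medians and counts past the mark 89 stayed within the counting error of the group's middle genes (medians) or within 1.5 times the count. For the sterol enzymes that error, 0.37 to 0.40, exceeds the medians themselves, so this tally says little about their stability. Dropping the filter, or asking for 1 FPKM in either library compared, kept all 32 members and so could not change any of these values. With a pseudocount of 0.1 the knockout-labelled library had 2 members past 1.5-fold, Sqle and Nsdhl, and with libraries scaled to the same sum 1, Sqle. At a 2-fold mark transplanted against steady-state WT had 0. Same-sum scaling moved the efflux median of the transgenic comparison to -0.19. Of 72 alternative medians 5 changed sign, none of them larger than 0.11 in size on either side, for the fatty acid enzymes in both genotype comparisons and for the control genes in the Tg comparison and between the WT libraries. The count of genes higher in the Tg library and lower in the knockout-labelled library, recomputed after seeing the data, fell from 15 to 13 with libraries scaled by the median of gene ratios and to 7 with the same sum. The same-sum scaling rests on sums that include very short genes of uncertain value.

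Depth limits the sterol enzymes most, since Tm7sf2 and Mvk rested on as few as 31 and 32 reads. Of the remaining marker lists, 6 plasma cell markers of 7 matched and had medians of -0.51 in the Tg library, -0.12 in the knockout-labelled library and -0.42 after transplantation of WT, with 6 of 6 lower in the Tg library and in transplanted WT and 2 past 2-fold in the latter.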
